A study of Mus musculus with 6 samples.

Results

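The genes described here encode some of the cytokines of the IL-6, IL-10, IL-12 and IL-15 families that macrophages can make. With them are 2 receptor chains of these cytokines. The 10 genes are Il6, Il10, Il12a, Il12b, Il23a, Il27, Ebi3, Il15, Il15ra and Il10ra, and they were picked by symbol from 22105 rows of the expression table that carry an Ensembl gene identifier. All 10 were found, each in 1 row. RNA was sequenced from 6 libraries of RAW264.7, a mouse macrophage-like line that grows continuously in culture and is a single transformed line rather than tissue macrophages. In 3 libraries the cells had received phosphate buffered saline (PBS), and in the other 3 they had received nanoparticles named CM-PEG-PLGA@DOX/R848, dosed to give 2 µg/mL of DOX, both for 24 h. DOX is doxorubicin, a DNA-damaging topoisomerase poison, R848 (resiquimod) activates endosomal Toll-like receptors, and PEG and PLGA are polymers. No library had DOX, R848 or the carrier alone, so their parts cannot be told apart.

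Several of these cytokines are built from 2 chains that are encoded by separate genes. Il12a encodes p35 and Il12b encodes p40, which join to form IL-12, while p40 with the product of Il23a (p19) forms IL-23. The product of Il27 (p28) joins Ebi3 to form IL-27, and Ebi3 with p35 forms IL-35. IL-6 and IL-10 are made from 1 gene each. IL-15 is carried to the cell surface by its alpha receptor chain, Il15ra, and shown from there to neighbouring T and NK cells. In macrophages, Toll-like receptor signals induce many of these genes through NF-kB, and IL-10 limits the inflammatory response through Il10ra, JAK1 and STAT3.

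Nanoparticle libraries had higher levels of Il6, Il10, Il23a, Il27, Ebi3, Il15 and Il10ra. Il15ra did not pass the test. Il12a and Il12b stayed at or near 0 in every library. Levels are in FPKM, which divides fragments by transcript length and library size and so allows genes to be set beside one another. Changes are log2 fold changes of FPKM + 1 from limma, a linear model fitted to every gene whose mean over the 6 libraries reached 1 FPKM, and a gene is called where its Benjamini-Hochberg adjusted p over all 10229 genes is under 0.05. Of those genes 42.7% were called higher and 34.5% lower. That balance depends on scaling, with 3938 higher and 3948 lower under median-ratio scaling and 3728 higher and 4165 lower under upper quartile scaling. Of the 10 genes 8 were tested and 7 were called higher, and the remaining fold change was positive too. For 5 of the 7 (Il6, Il10, Il23a, Il27 and Il15) the PBS mean was under 1 FPKM. They entered the test only through the nanoparticle libraries, so their nanoparticle mean had to be the higher one. Among all such genes, 347 of 362 were called higher. Of the 3 genes that passed on their PBS level alone (Ebi3, Il10ra and Il15ra) 2 were called higher, against 4019 of 9867 such genes in all. Groups did not overlap at 7 of the 8, against 78.8% of all genes tested. The 5 genes whose nanoparticle mean had to be higher are among those 7. Of the 3 that passed on their PBS level, Ebi3 and Il10ra were apart and Il15ra overlapped. The median log2 fold change over the 8 was 2.08, a value raised by the way genes entered the test. It was 1.33 over the 362 tested genes with a PBS mean under 1 FPKM, which passed only through their nanoparticle level. Over all genes tested it was 0.08.

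**Figure D1:**
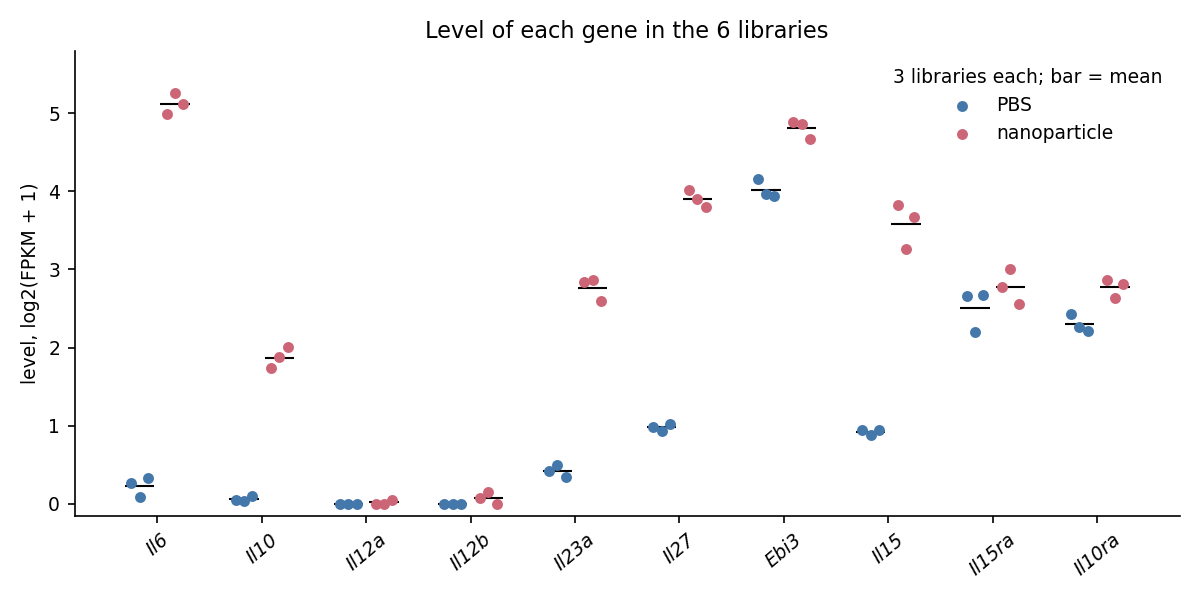
Levels of the 10 genes on the log2(FPKM + 1) scale (vertical axis) in 3 PBS and 3 nanoparticle libraries, with 1 point per library and a bar at the mean of each group. The points of the groups are apart for 7 genes, overlap for Il15ra, and lie at or near 0 for Il12a and Il12b.

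The macrophage identity of the cells was checked with markers. Of 10 macrophage markers 8 (Csf1r, Cd68, Lyz2, Cd14, Itgam, Spi1, Ptprc and Fcgr1) were at 21.2 FPKM or more in every library. Adgre1, which encodes F4/80, was at only 1.61 to 1.96 FPKM in PBS, and Mertk was at 0 in all PBS libraries and at most 0.104 FPKM after the particles. After the particles 6 of the 9 markers tested were called lower and 2, Adgre1 and Fcgr1, higher. Over all genes tested the shares were 34.5% lower and 42.7% higher. Mean levels went from 296 to 49.1 FPKM for Csf1r, from 1503 to 395 FPKM for Lyz2 and from 667 to 239 FPKM for Cd14, while Adgre1 went from 1.77 to 12.4 FPKM. Summed over 8 lymphocyte markers, levels were 0.0300 to 0.172 FPKM in PBS and reached 0.359 to 0.538 FPKM after the particles, with Cd8a and Ncr1 at 0 in all. The 9 epithelial, fibroblast and endothelial markers summed to 0.153 to 0.520 FPKM and 1.21 to 1.33 FPKM, with Krt18 at 0 throughout. The 7 dendritic cell markers summed to 1.59 to 1.92 FPKM and 6.12 to 6.79 FPKM, most of it Itgax, an integrin that macrophages also express. More genes were listed above 0 in nanoparticle libraries (15723 to 15989) than in PBS libraries (12678 to 12872), which bears on genes near 0 in PBS. The part of these differences in the values below was not tested. In bulk RNA, more cells that express a gene and more RNA per cell cannot be told apart.

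Il6 (ENSMUSG00000025746, chromosome 5, 30013114 to 30019981, GRCm38) encodes IL-6, which drives fever, the acute phase response and B and T cell help. Its level was 0.205, 0.0584 and 0.258 FPKM in the PBS libraries but 30.8, 37.2 and 33.9 FPKM in the nanoparticle libraries. Every nanoparticle library was far above every PBS library, and the gene went from the seventh rank of the 10 genes to the first. The means were 0.174 ± 0.103 and 34.0 ± 3.19 FPKM (SD, n = 3). limma put the log2 fold change at 4.90 ± 0.10 (SE, adjusted p = 1.8e-10). The ratio of mean FPKM was 195, but its denominator is close to 0 and varied by 59.5% of its mean (SD), so the size of that ratio is loosely fixed. Of 3826 genes with a PBS mean above 0 and under 1 FPKM, whose median nanoparticle mean was 0.142 FPKM, 4 reached the nanoparticle mean of Il6, itself included.

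The bases upstream of the start sites of Il6, Ebi3 and Il12b are shown because these genes took 3 courses in the data: Il6 rose from near 0, Ebi3 rose from a level already present, and Il12b stayed at or near 0. RefSeq promoters (GRCm38.p6) were at hand for 5 of the 10 genes. Each sequence is the 250 bases before the start site, plus strand, 5′ to 3′, and capitals mark matches on either strand to the NF-kB consensus, AP-1 (TGANTCA), C/EBP (TTNNGNAAT) or the interferon element ISRE. No capitals overlap between motifs.
Il6, chr5:30012864-30013113: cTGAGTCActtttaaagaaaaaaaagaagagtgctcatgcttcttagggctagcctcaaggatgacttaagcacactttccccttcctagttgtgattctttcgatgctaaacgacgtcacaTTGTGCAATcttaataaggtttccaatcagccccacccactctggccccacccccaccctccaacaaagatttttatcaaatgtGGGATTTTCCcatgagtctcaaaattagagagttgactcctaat
Ebi3, chr17:55952373-55952622: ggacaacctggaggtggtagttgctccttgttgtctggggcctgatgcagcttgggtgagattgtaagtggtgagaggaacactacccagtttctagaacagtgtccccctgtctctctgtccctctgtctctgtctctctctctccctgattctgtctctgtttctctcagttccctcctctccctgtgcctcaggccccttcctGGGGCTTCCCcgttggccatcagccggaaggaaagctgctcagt
Il12b, chr11:44399813-44400062: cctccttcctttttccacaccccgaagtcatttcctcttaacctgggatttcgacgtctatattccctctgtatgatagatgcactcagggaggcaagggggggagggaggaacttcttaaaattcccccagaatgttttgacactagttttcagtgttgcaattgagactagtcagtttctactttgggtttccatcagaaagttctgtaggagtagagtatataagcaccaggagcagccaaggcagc

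The window of Il6 held an AP-1 match from -249 to -243, a C/EBP match from -128 to -120 and an NF-kB match from -44 to -35, counted from the start site. Ebi3 held an NF-kB match at the same distance from its RefSeq start site, -44 to -35, with other letters inside the consensus. That start site is 55952623, while the gene coordinates given below begin at 55952640, so the distance depends on the annotation. The Il12b window matched none of the 4 motifs as written, which says only that these letters are not in it. In 32851 mouse promoter windows of the same length, 7.25% held the NF-kB consensus, 6.75% AP-1, 10.2% C/EBP and 2.98% ISRE. Of the windows of Il12a and Il15ra, 1 of Il15ra matched, with AP-1 and C/EBP. A match is a description of letters, and binding was not measured.

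Il12a (ENSMUSG00000027776, chromosome 3, 68690644 to 68698547) and Il12b (ENSMUSG00000004296, chromosome 11, 44400063 to 44414033), the chains of IL-12, were the 2 genes that did not rise to a measurable level. Il12a was listed at 0 in 5 libraries and at 0.0388 FPKM in nanoparticle replicate 3. Il12b was listed at 0 in all PBS libraries and at 0.0497, 0.113 and 0 FPKM in the nanoparticle libraries. Neither reached the mean of 1 FPKM needed for testing. With the filter removed, limma gave a log2 fold change of 0.07 ± 0.04 for Il12b (SE, adjusted p = 0.14) and 0.02 ± 0.02 for Il12a (adjusted p = 0.42). Traces of this size were common: of 8358 genes listed at 0 in all PBS libraries, 51.0% were above 0 in at least 1 nanoparticle library and 28.4% in at least 2. Only 18 of them reached a nanoparticle mean of 1 FPKM. Library depth is unknown, so no upper limit can be put on a listed 0.

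Il23a (ENSMUSG00000025383, chromosome 10, 128296139 to 128298752), the p19 chain of IL-23, was at 0.332, 0.411 and 0.266 FPKM in PBS, and the particle-treated libraries had 6.16, 6.29 and 5.04 FPKM. The groups were far apart, and the change in limma was 2.35 ± 0.10 on the log2 scale (SE, adjusted p = 1.9e-08). The chain that IL-23 needs besides p19 is p40, the Il12b product. Il12b over Il23a was 0.00807, 0.0180 and 0 as a ratio of FPKM in the nanoparticle libraries. Transcripts of p19 therefore exceeded those of p40 by a wide margin in each nanoparticle library, per unit of transcript length.

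Il27 (ENSMUSG00000044701, chromosome 7, 126589010 to 126594941) encodes the p28 chain of IL-27, a cytokine that can restrain T cell inflammation and favour Th1 and regulatory responses. It was at 0.985, 0.901 and 1.02 FPKM in PBS but at 15.2, 13.9 and 13.0 FPKM with the particles. The groups did not overlap, and limma put the change at 2.93 ± 0.08 on the log2 scale (SE, adjusted p = 1.4e-09). The ratio of mean FPKM was 14.4. Il27 shares 103 of its 1021 exon bases with Apobr on the opposite strand, whose mean went from 32.2 to 42.7 FPKM. No source at hand says if reads were assigned by strand, so reads of the 2 genes there cannot be told apart and the low PBS level of Il27 is uncertain.

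Ebi3 (ENSMUSG00000003206, chromosome 17, 55952640 to 55957022), which encodes the receptor-like chain shared by IL-27 and IL-35, was the most abundant of the 10 genes in PBS. It was at 16.8, 14.6 and 14.4 FPKM there and at 28.6, 28.0 and 24.5 FPKM after the particles. The groups did not overlap and limma gave a change of 0.78 ± 0.08 on the log2 scale (SE, adjusted p = 1.2e-05), a ratio of mean FPKM of 1.77. Ebi3 needed no nanoparticle signal to be tested, as its PBS mean was 15.3 ± 1.36 FPKM (SD, n = 3). It shares 270 exon bases with Gm16712 on the opposite strand, a gene not analysed here, so the same doubt about strand holds.

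Since p28 rose far more than Ebi3, the balance of the IL-27 chains changed. Ebi3 transcripts exceeded Il27 by 17.1, 16.2 and 14.1 times in the PBS libraries and by 1.88, 2.01 and 1.89 times in the nanoparticle libraries. The PBS ratios, and any change from them, rest on the PBS level of Il27, which is uncertain because of the overlap with Apobr. On the log2(FPKM + 1) scale the difference of Ebi3 over Il27 went from 3.04 ± 0.12 to 0.90 ± 0.05 (SD, n = 3), a change of -2.14 (two-sided exact permutation p = 0.10, 0.125 adjusted over the 5 pairs compared). A p of 0.10 is the smallest that 3 libraries against 3 can give, so no pair could pass 0.05. For the pairs with Il12b or Il12a, which were at or near 0 in every library, the difference restates the change of the other chain: -2.28 for Il12b over Il23a and 0.77 for Ebi3 over Il12a. They carry no information beyond the values of Il23a and Ebi3.

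**Figure D2:**
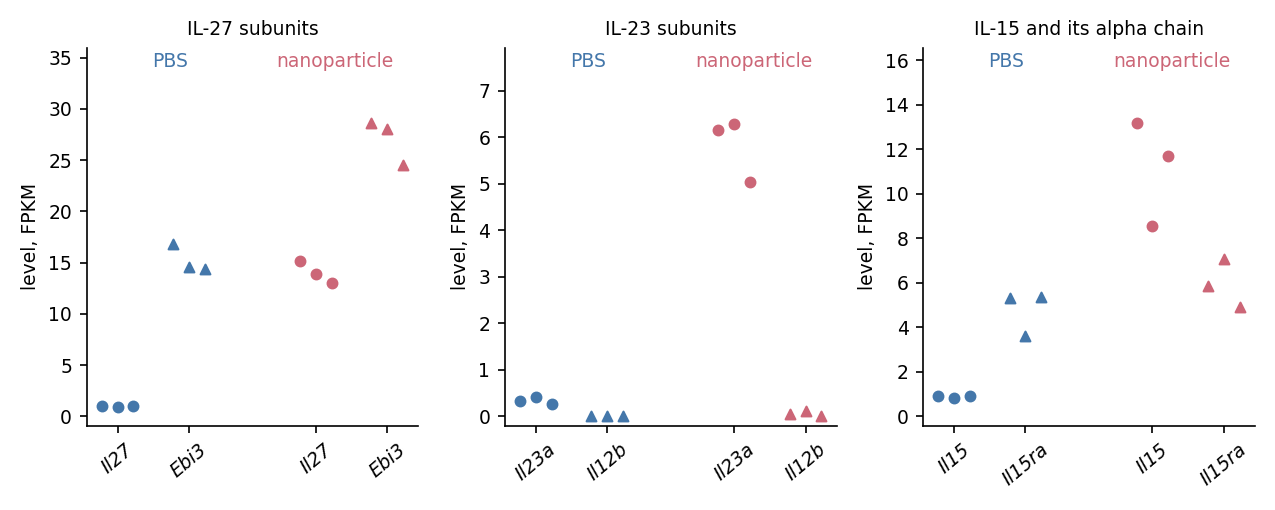
Levels in FPKM (vertical axes, 1 point per library, PBS left and nanoparticle right in each panel) of Il27 and Ebi3, of Il23a and Il12b, and of Il15 and Il15ra. Il27 approaches Ebi3 after the particles, Il23a rises with Il12b at or near 0, and Il15 passes Il15ra.

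Il15 (ENSMUSG00000031712, chromosome 8, 82331632 to 82403222) encodes IL-15, which sustains NK cells and memory T cells. It was at 0.926, 0.837 and 0.917 FPKM in PBS, against 13.2, 8.57 and 11.7 FPKM with the particles. All nanoparticle libraries were above PBS, and replicate 2 was the lowest of them. In limma the change was 2.66 ± 0.13 on the log2 scale (SE, adjusted p = 5.8e-08), and the ratio of mean FPKM was 12.5.

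Il15ra (ENSMUSG00000023206, chromosome 2, 11705290 to 11734317), the chain that carries IL-15, was at 5.31, 3.59 and 5.37 FPKM in PBS, against 5.86, 7.04 and 4.89 FPKM with the particles. The groups overlapped, since nanoparticle replicate 3 was below PBS replicates 1 and 3. The log2 fold change of 0.27 ± 0.15 (SE) did not pass (limma adjusted p = 0.12), and its 95% interval of -0.06 to 0.60 does not show that the gene was unchanged. Without nanoparticle replicate 3 the call changed (log2 fold change 0.38, adjusted p = 0.032), and over all alternatives the adjusted p was 0.032 to 0.43. Il15ra exceeded Il15 by 5.73, 4.29 and 5.86 times in PBS, while the same ratio was 0.444, 0.822 and 0.419 in nanoparticle libraries. The FPKM of Il15 was thus above that of Il15ra in 3 of 3 nanoparticle libraries and in 0 of 3 PBS libraries. The change in the log2 difference was -2.39 (exact permutation p = 0.10, 0.125 adjusted over the 5 pairs). Which gene had more transcripts depends on the gene lengths behind the FPKM, which are unknown. Il15ra is annotated with 18 transcripts over 4446 exon bases, and Il15 with 10 over 2261.

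Il10 (ENSMUSG00000016529, chromosome 1, 131019845 to 131024974), which encodes the main anti-inflammatory cytokine of macrophages, was at 0.0349, 0.0295 and 0.0709 FPKM in PBS, while the treated libraries had 2.33, 2.67 and 3.00 FPKM. Every nanoparticle library was above every PBS library. By limma the change was 1.81 ± 0.09 (SE, adjusted p = 8.8e-08) in log2(FPKM + 1), a scale that understates the change of a gene this low. Among the 3826 genes low in PBS, 181 reached the nanoparticle mean of Il10, 4.73% of them, against 1.86% for Il23a, 0.863% for Il15 and 0.523% for Il27.

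Il10ra (ENSMUSG00000032089, chromosome 9, 45253837 to 45269149) encodes the ligand-binding chain of the IL-10 receptor. It was at 4.39, 3.81 and 3.62 FPKM in PBS, while the treated libraries had 6.29, 5.23 and 6.003 FPKM. The groups did not overlap, but the change was small, at 0.47 ± 0.09 on the log2 scale in limma (SE, adjusted p = 9.9e-04) and a ratio of mean FPKM of 1.48.

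**Figure D3:**
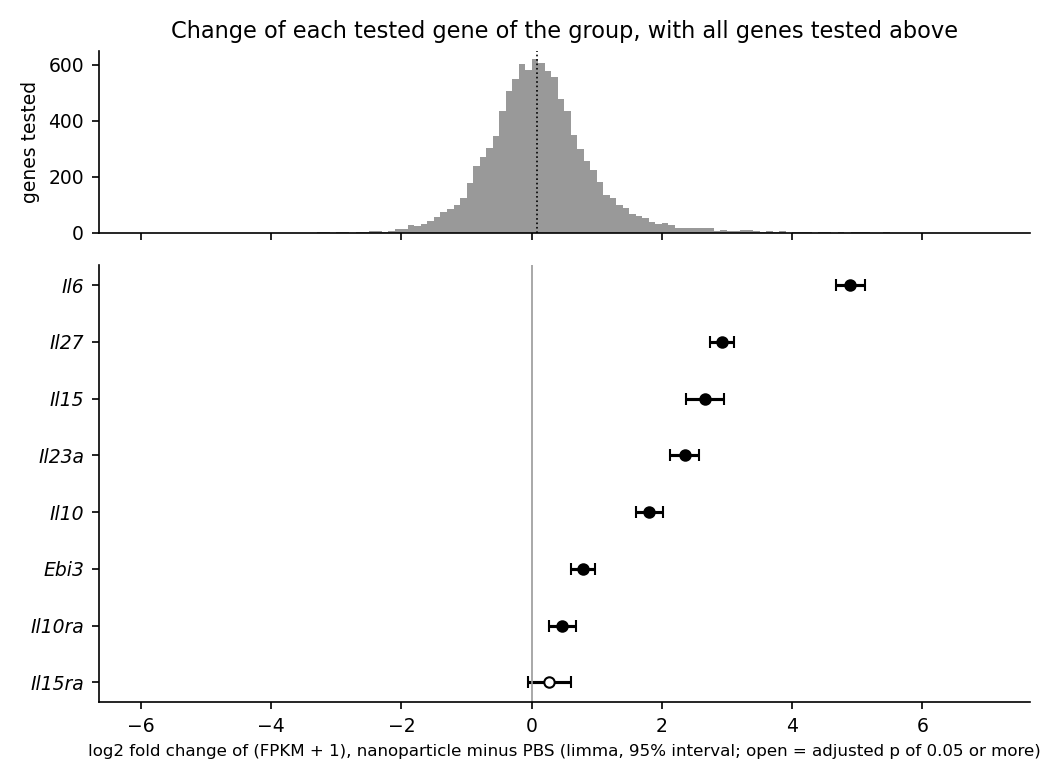
Log2 fold changes (horizontal axis, nanoparticle minus PBS on FPKM + 1) of the 8 tested genes with 95% intervals, under a histogram of all 10229 genes tested with a dotted line at their median. Il6 lies at 4.90, Il15ra has the only interval that reaches 0, and Il10ra and Ebi3 lie near the bulk of all genes.

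The order of the levels changed between the groups. In PBS the order was Ebi3, Il15ra, Il10ra, Il27, Il15, Il23a, Il6, Il10 and, at 0, Il12a and Il12b. The ranges of neighbours overlapped for Il15ra and Il10ra, for Il27 and Il15, and for Il6 and Il10. In nanoparticle libraries the order was Il6, Ebi3, Il27, Il15, Il15ra, Il10ra, Il23a, Il10, Il12b and Il12a. There Il15ra, Il10ra and Il23a had means of 5.93, 5.84 and 5.83 FPKM and could not be ranked, and Il27 and Il15 overlapped.

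Summed over the 8 cytokine genes, the level was 19.3, 16.8 and 16.9 FPKM in PBS, against 96.3, 96.8 and 91.2 FPKM after the particles. Ebi3 made up 86.3% ± 1.12 of the sum in PBS and 28.5% ± 1.43 after the particles (SD, n = 3). Il6 went from 0.978% ± 0.593 to 35.9% ± 3.41, Il27 from 5.50% ± 0.492 to 14.8% ± 0.845 and Il15 from 5.06% ± 0.322 to 11.8% ± 2.58. The sum in PBS was therefore mostly 1 chain that is secreted with a partner, and after the particles Il6 and Ebi3 led it.

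Among 16 other cytokines of these families, 2 were tested and both rose, where 42.7% of all genes tested were called higher. Osm, oncostatin M of the IL-6 family, rose from 2.13 ± 0.0961 to 11.0 ± 0.450 FPKM (SD, n = 3). Lif, of the same family, rose from 0.114 ± 0.0240 to 3.87 ± 0.206 FPKM, and it too was tested only through its nanoparticle level. Il2, Il4, Il9, Il20 and Il22 were listed at 0 in every library. Il19 and Il24, neighbours of Il10 in the same gene cluster, were each above 0 in 1 library, at 0.0593 FPKM in PBS replicate 1 and at 0.0425 FPKM in nanoparticle replicate 1.

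Of 10 receptor chains for these cytokines 5 were tested. Among them 2 rose and 1 fell, near the shares over all genes (42.7% and 34.5%), and the median of the 5 was -0.10 in log2. Il2rg, the common gamma chain that IL-15 uses, rose from 60.7 ± 1.94 to 124 ± 3.97 FPKM, or by 1.02 ± 0.05 in log2 (SE). Il6ra, the IL-6 binding chain, fell from 10.5 ± 0.920 to 7.85 ± 0.648 FPKM (limma adjusted p = 2.5e-03). The remaining chains were described after their values were seen. Il10rb, the second IL-10 receptor chain, was called higher by a log2 fold change of 0.23 (adjusted p = 0.010), a call lost under median-ratio scaling (0.15, adjusted p = 0.051) and upper quartile scaling (0.11, adjusted p = 0.16). Il6st, the gp130 chain, had means of 7.94 and 7.36 FPKM and did not pass (adjusted p = 0.31). Il12rb1 had means of 1.64 and 1.38 FPKM and did not pass either (adjusted p = 0.16). Il12rb2, Il23r, Il27ra, Il2ra and Il2rb were under the filter.

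In the list of JAK kinases, STAT factors and SOCS feedback genes, 6 of 10 tested rose and 2 fell (median log2 fold change 0.35), beside 42.7% and 34.5% of all genes tested. Cish, a feedback inhibitor of cytokine receptors, rose from 0.109 ± 0.0345 to 4.57 ± 0.341 FPKM, and was tested only through its nanoparticle level. Tyk2, a kinase used by the IL-10 and IL-12 receptors, went against the list and fell from 17.6 ± 0.622 to 12.7 ± 0.372 FPKM. Stat3, the factor that both IL-6 and IL-10 activate, rose from 13.0 ± 0.412 to 36.1 ± 3.01 FPKM, and its feedback inhibitor Socs3 from 10.7 ± 0.346 to 14.3 ± 0.787 FPKM (both named after their values were seen).

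Of 14 tested transcription factors and cofactors that control these cytokine genes, 11 rose and 2 fell (median log2 fold change 1.15), beside 42.7% and 34.5% of all genes tested. Atf3, a stress factor that restrains Toll-like receptor output in macrophages, rose by 4.03 ± 0.05 in log2 (SE, limma adjusted p = 2.6e-11). Batf, an AP-1 family factor, rose from 0.166 ± 0.0983 to 11.8 ± 0.556 FPKM, and it too entered the test through its nanoparticle level. Cebpb, which acts at the Il6 promoter, fell from 42.5 ± 1.92 to 34.8 ± 1.32 FPKM. The next genes were named after their values were seen. Cebpd, the other C/EBP gene of the list, rose from 5.09 ± 0.287 to 16.7 ± 0.821 FPKM. Nfkbiz, a nuclear cofactor that Il6 and Il12b induction requires, rose from 2.46 ± 0.245 to 19.3 ± 1.71 FPKM. Irf8, a factor for Il12b, was called lower by a log2 fold change of -0.25 (adjusted p = 0.012), a call lost without PBS replicate 1 (adjusted p = 0.052). Maf, a factor for Il10, was at or near 0 in every library.

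Of 10 genes that set the lifetime of cytokine mRNA, 6 were called higher and 4 lower, beside 42.7% and 34.5% of all genes tested. Among called genes alone, the split was not far from that of all genes called. The median log2 fold change of the list was 0.96, against 0.08 over all genes tested. Zc3h12a (Regnase-1), a nuclease that cuts Il6 and Il12b mRNA, rose from 5.02 ± 0.0767 to 22.5 ± 1.46 FPKM. Hnrnpd (AUF1), which binds AU-rich elements, fell from 195 ± 5.61 to 61.6 ± 3.70 FPKM. Arid5a, which protects Il6 mRNA, rose from 0.786 ± 0.332 to 21.0 ± 2.59 FPKM, was tested only through its nanoparticle level and was named after its value was seen.

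All 10 genes listed as responsive to IL-10 in macrophages rose, by a median of 1.29 in log2. Whether IL-10 had a part in these changes was not tested. Il1rn, the IL-1 receptor antagonist, rose by 4.12 ± 0.05 in log2 (SE) and Dusp1, a phosphatase of MAP kinases, rose from 3.77 ± 0.181 to 22.4 ± 0.266 FPKM. Socs3, Bcl3, Nfil3 and Zfp36 of this list also belong to other lists here. Il4ra, 1 of the 10, was tested only through its nanoparticle level, and 42.7% of all genes tested were higher.

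**Figure D4:**
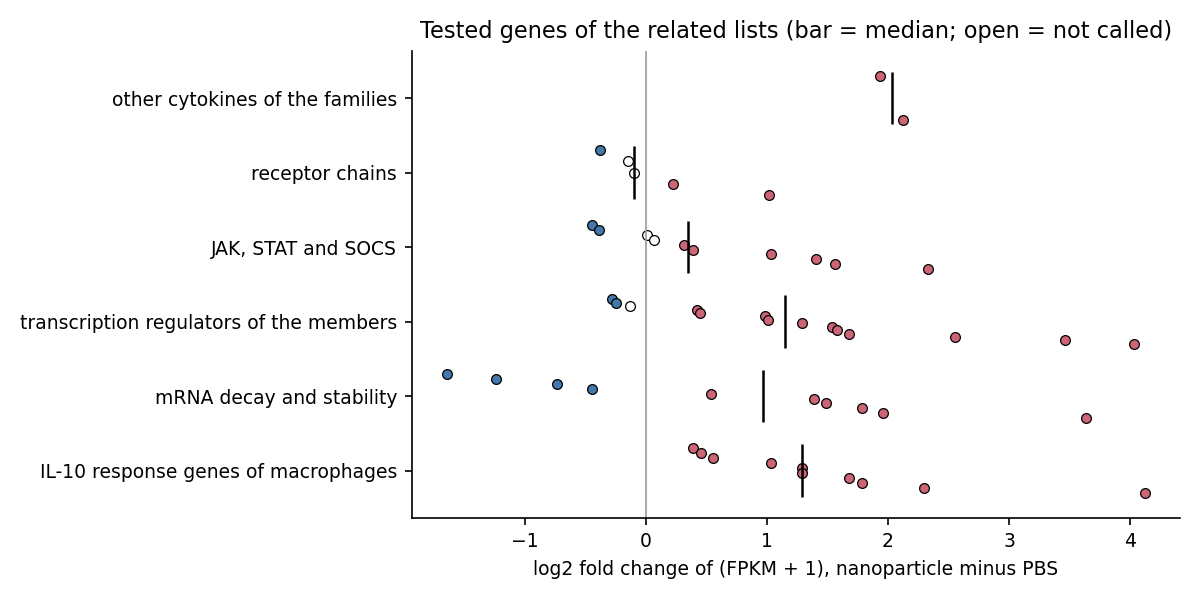
Log2 fold changes (horizontal axis, nanoparticle minus PBS on FPKM + 1) of the tested genes of 6 related lists, 1 point per gene, red where called higher, blue where called lower and open where not called, with a bar at each median. The IL-10 response list is called higher throughout, and the mRNA decay list has 4 genes on the lower side.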

How the data were processed

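The authors deposited 1 table with a column per library, whose header gives no unit. The deposited values were taken as FPKM computed by the authors. The submitters' processing notes name STAR, featureCounts, GRCm38 and mm10, with no roles or versions. That unit was inferred from the values, which are not whole and sum to 451056 to 469220 per library, and TPM of a longer table is possible. Whether counting used strand is unknown. At most 37.5% of low values of single-transcript genes were whole multiples of 1 fragment (within 0.05), so fragment numbers were not recovered, the depth is unknown and no count test was run. The 509 rows without a gene identifier (0.427% to 0.497% of FPKM) were left out. The column of PBS replicate 1 adds a suffix to the library name that the labels do not explain.

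Groups were taken from the titles, with n = 3 each. Nothing in the labels says that replicates were grown apart, so the spread behind each p-value may be technical. limma 3.58.1 (R 4.3.3) with an intensity trend was fitted to log2(FPKM + 1) of genes whose mean was 1 FPKM or more, two-sided, and tested on simulated data. Pairs of chains were compared with a two-sided exact permutation test over libraries. Coordinates and overlaps came from GENCODE M21 (GRCm38), which held 21995 of the identifiers, and plots from Python 3.11.15 and matplotlib 3.10.9. Same-numbered libraries deviated together (r = 0.13, 0.11 and 0.35 for replicates 1, 2 and 3, over 10229 genes), which by a limit of 0.1 counts as pairing, although PBS replicate 2 and nanoparticle replicate 1 gave 0.13 too. The replicate block was therefore run as an alternative.

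The genes and lists were chosen with earlier results of these data known. From each list the text names the 2 tested genes with the smallest p-values and the most significant called gene against its majority. In the JAK, STAT and SOCS list, 1 gene that this rule picks is not reported here. Other genes named were chosen after their values were seen. For each tested gene of the group, the gene with the smallest Euclidean distance over the 6 libraries is named too. Alternatives were pseudocounts of 0.1 and 10, no filter, a mean of at least 5 FPKM, 3 scalings, no trend, the replicate block and leaving out each library.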

Additional observations from a re-analysis of the deposited data

How the results depend on the processing

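Over 15 alternatives, each called gene of the group kept its direction and its call wherever it could be fitted. Il10, Il23a and Il10ra have means under 5 FPKM over the 6 libraries and were not tested under that filter. With it 4 genes of the group were called higher, 1 of the other cytokines was called higher and 1 JAK, STAT or SOCS gene lower, because fewer genes were tested. With no filter the other cytokines called higher were 6, and 4 after rescaling each library to one common total, because more were tested. Receptor chains called higher were 1 under median-ratio scaling and 1 under upper quartile scaling, and chains called lower were 2 under the latter, where Il12rb1 was called (log2 fold change -0.22, adjusted p = 0.048). Upper quartile scaling shifted the median of all genes by -0.11. Leaving out 1 library at a time gave 1 to 3 transcription regulators called lower and a log2 fold change of Il15ra from 0.12 to 0.38, with 7 to 8 genes of the group called higher. The replicate block, fitted as a paired term, gave 7 genes of the group called higher, with an adjusted p of 0.16 for Il15ra, and changed no other call described for the group. The log2 fold change of Il6 was 7.04 at a pseudocount of 0.1 and 2.11 at 10, so sizes of change for genes low in PBS depend on the pseudocount. The differences between pairs of chains kept their direction in all alternatives run for them.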

Other observations

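The tested genes whose levels were nearest to those of the group, by Euclidean distance over the 6 libraries on the log2(FPKM + 1) scale, were taken as a likeness of level and change. Gbp9, an interferon-induced GTPase, was nearest to Il6 (distance 0.69), at 0.400 ± 0.0691 FPKM in PBS and 28.7 ± 3.43 FPKM in nanoparticle libraries (SD, n = 3). Tgtp2, also an interferon-induced GTPase, was nearest to Il10 (0.21), but a near-identical gene lies beside it and its value is uncertain. Phlda3, a p53 target, was nearest to Il23a (0.31), at 0.385 ± 0.0725 and 5.50 ± 0.607 FPKM. Cd274, which encodes the checkpoint ligand PD-L1, was nearest to Il15 (0.44), at 0.964 ± 0.125 and 10.4 ± 0.492 FPKM. The histone gene H2bc12, of a family of near-identical copies, was nearest to Il27 (0.30). Dvl1, a Wnt pathway adaptor, was nearest to Ebi3 (0.14), Pcx, pyruvate carboxylase, to Il10ra (0.18), and Rnf113a1 to Il15ra (0.31). With 6 libraries in 2 groups, such nearness describes levels and says nothing of shared control.

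Of the other cytokines under the filter, 5 had values above 0 in 3 or more libraries, and they went in both directions. Il11, of the IL-6 family, was at 0.139, 0.0502 and 0.0866 FPKM in PBS and at 1.33, 1.84 and 1.96 FPKM after the particles. Il7, of the common gamma family, was at 0.0595, 0.0605 and 0.0738 FPKM in PBS and at 0.673, 0.740 and 0.875 FPKM after them. Ctf1, cardiotrophin, was at 0.162, 0.313 and 0.326 FPKM in PBS and at 1.05, 0.557 and 0.887 FPKM after them. Clcf1 was at 0 in PBS and at 0.0267, 0.0374 and 0.0437 FPKM after them. Cntf, a neurotrophic cytokine, went the other way, from 0.203, 0.304 and 1.06 FPKM in PBS to 0.175, 0.149 and 0.0333 FPKM. These genes were not tested in the main fit. With no filter, 6 of the 16 other cytokines were called higher, Osm and Lif among them. In that fit 0 were called lower, so the fall of Cntf was not called.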
